A study of Homo sapiens with 8 samples.

Results

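The response of HCT116 cells to miR-143-5p, the passenger strand of the miR-143 precursor, was examined on the 1 array that carried it. Its members were all non-control probes that the scanner software called well above background in at least 1 channel, and 26679 of 58201 probes met this rule. After each gene name was represented by its brightest probe, 20498 of 43317 gene names were kept. HCT116 is an established human colorectal cancer cell line. Per the labels, the Cy5 channel held total RNA of HCT116 cells into which miR-143-5p had been introduced with the reagent Lipofectamine RNAiMAX, whereas mock HCT116 cells, which received no miRNA, gave the RNA labelled with Cy3.

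The array was 1 of 8 in the series, 4 of them with HCT116 RNA and 4 with RNA of PANC-1, a pancreatic cancer line. Each compared cells transfected with 1 miRNA strand with mock cells of the same line. Per the labels, the other HCT116 arrays carried miR-143-3p and both strands of miR-139. The PANC-1 arrays carried both strands of miR-30a, miR-30c-5p and the passenger strand miR-30c-2-3p. There was 1 array per miRNA and no dye swap, so no value below has a replicate error or a test, and the dye and the transfection cannot be told apart. The control was mock cells and not cells given a control miRNA, so effects of any transfected RNA are part of each ratio. The array does not measure the mature miRNA itself, so uptake of miR-143-5p could not be checked. The host gene of the precursor, MIR143HG (CARMN), was near background in both channels, with spot intensities of 25.9 in miR-143-5p cells and 28.03 in mock cells.

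A microRNA guides an Argonaute complex to messenger RNAs, mainly through pairing of its seed, bases 2 to 8, with sites in their 3′ untranslated regions, and the bound messages are translated less and degraded. A precursor hairpin gives 2 mature strands. The more abundant guide strand of miR-143 is miR-143-3p, which is known for its loss in colorectal tumours and its high level in smooth muscle. The passenger strand, miR-143-5p, comes from the other arm of the same hairpin and has another seed, so pairing by seed predicts other targets for it.

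The mature sequences of both strands, with the seed in capitals, are given first because the seed is the part that was searched for in the probes. They are from RefSeq and lie on the plus strand of chromosome 5 in GRCh38.p14, miR-143-5p at chr5:149428944-149428965 and miR-143-3p at chr5:149428978-149428998. No other human miRNA in that reference shares the seed of miR-143-5p (0 entries), while 2 share that of miR-143-3p.
miR-143-5p: gGUGCAGUgcugcaucucuggu
miR-143-3p: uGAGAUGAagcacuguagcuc

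A message that pairs with bases 2 to 8 of miR-143-5p holds ACTGCAC on its sense strand, and an A directly after this heptamer makes the full site ACTGCACA. A shorter heptamer, CTGCACA, pairs with bases 2 to 7 and is followed by the A. The 60-base probes of the array are themselves pieces of sense transcript sequence, so they could be searched for both heptamers on the sense strand, where the full site contains both. Of the 205 genes that were at least 2-fold lower, 9 had such a heptamer in their probe, and windows around it are shown here for 8 of them, with the bases of the site in capitals. The windows are transcript sense as the files give the probe. Positions of the whole probe are on hg19, and those of TMSB10 cover more than 60 genomic bases. Whether a probe lies in the 3′ untranslated region of its transcript was not checked, so a heptamer shown may lie elsewhere in the message.
HN1 (JPT1), chr17:73132103-73132162, minus: catgcttgtgaACTGCACAacttgagcctg
PGK1, chrX:77381462-77381521, plus: agctcatcttcACTGCACcctggatttgc
SMYD2, chr1:214510246-214510305, plus: tgcacttaaacACTGCACAtgccgtacttt
TMSB10, chr2:85132798-85133141, plus: ctcggaacgagACTGCACggattgtttta
NDUFAF3, chr3:49060618-49060677, plus: tgacctgctgACTGCACtctgccaggct
ANAPC1, chr2:112526797-112526856, minus: aaacgtgacttCTGCACAacaaacgtgac
ESRP2, chr16:68263054-68263113, minus: gtgtaaggagcACTGCACtcccataaaa
UBE2Q2, chr15:76193256-76193315, plus: cagactgatagCTGCACAtttggcatgct

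All ratios are log2 of miR-143-5p cells over mock cells, after background correction with an offset and intensity-dependent (loess) normalisation within the array, so -1 means 2-fold lower in miR-143-5p cells. The offset pulls the ratios of dim probes towards 0, and the ratios of such genes understate the difference. Of the 20498 detected genes, 205 were at least 2-fold lower (1.0%) and 73 were at least 2-fold higher (0.356%), together 278 (1.36%). This balance depends on the normalisation: centring the array on its median in place of loess gave 105 lower and 206 higher genes, and the ratio of the scanner software gave 973 and 818. The median gene was at 0.00, the lowest 1% of genes lay at or below -0.9995 and the highest 1% at or above 0.77. There were 7 genes at or below -2 and 1 at or above 2. The genes next to the limits were at -1.007 inside and -0.999 outside on the lower side, and at 1.0002 inside and 0.9992 outside on the upper side.

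The size of this response was set against differences between mock channels, which should hold the same kind of RNA. The mock channel of this array was at least 2-fold from that of the miR-139-5p array in 227 genes (1.14%) and from that of the miR-139-3p array in 225 genes (1.13%), in either direction. It was 2-fold from the mock channel of the miR-143-3p array in 4 genes (0.0204%). The 278 genes called in either direction were thus about as many as between mock channels of the miR-143 and miR-139 arrays, and far more than between the mock channels of the miR-143 arrays. Whether any mock channels share 1 RNA preparation is not stated in the labels. Of the 205 lower genes, 19 had a mock level at least 2-fold from that on the miR-139-5p array (9.27%), and of the 73 higher genes 12 did (16.4%). With the mean of all 4 HCT116 mock channels as the control in place of the array's own, 143 of the 205 lower genes and 60 of the 73 higher genes were still past the 2-fold limit.

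**Figure D1:**
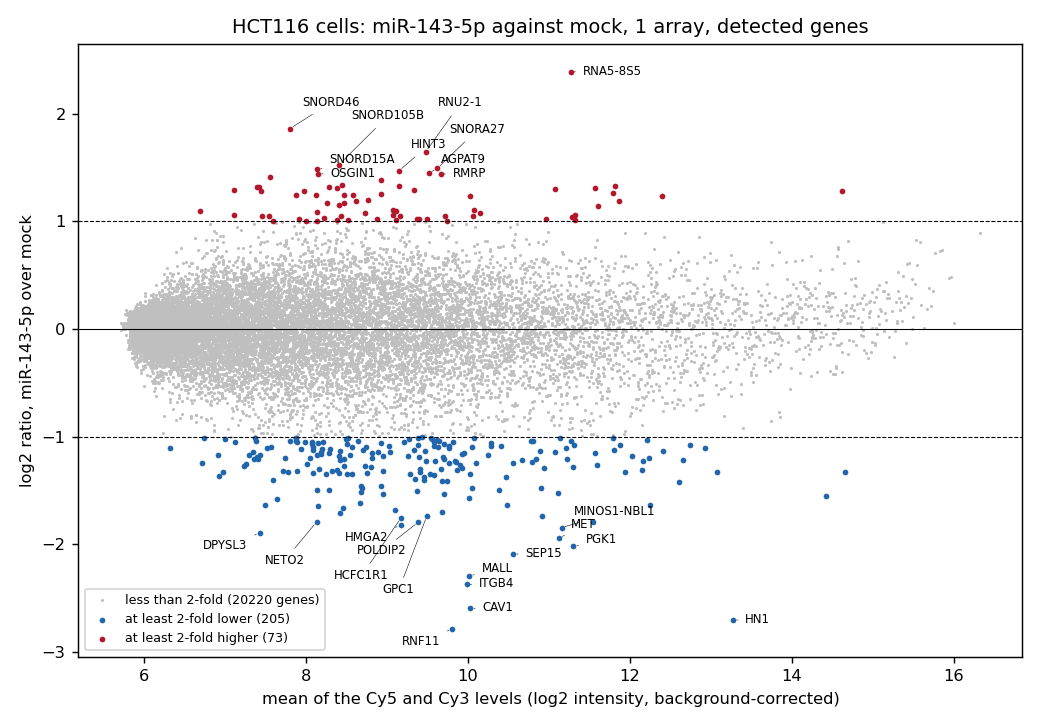
Each point is 1 of the 20498 detected genes, plotted by the mean of its Cy5 and Cy3 levels (log2 intensity) and its log2 ratio of miR-143-5p over mock, with dashed lines at 2-fold and the 15 lowest and 10 highest genes of the naming rule labelled. The 205 lower genes extend to -2.79 (RNF11), the 73 higher genes to 2.39 (RNA5-8S5), and the dimmest genes lie close to 0.

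Spots of 1 probe agreed closely within the array, with a median SD of 0.0473 on the log2 scale over 270 detected probes printed several times. It covers printing and hybridisation on 1 array only, and no spread between cultures could be had. Different probes of a gene agreed less well. Of the lower genes, 69 had another detected probe, and in 53 all probes of the gene were below 0, but in only 5 were all at or below -1. Of the 11 higher genes with another probe, all probes were above 0 in 10. The calls came from bright probes. The offset pulls dim genes towards 0, so the low count given next for them says little of these genes themselves. With an offset of 1, 604 genes were lower and 311 higher over all detected genes. Of the detected genes in the dimmest part, when they were split into 3 equal parts by mean level, 0 were called lower or higher, against 35 lower and 14 higher in the middle part and 170 lower and 59 higher in the brightest.

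The lower genes were almost all protein-coding, 192 of 205, from 13295 protein-coding genes detected. The higher genes were of mixed kind, with 42 protein-coding genes and 28 small structured RNAs among the 73. All of the 15 lowest genes described next had a level in miR-143-5p cells under that of each of the 4 HCT116 mock channels, on a scale normalised between arrays.

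The lowest gene was RNF11, which encodes a small RING-finger protein that binds HECT-type ubiquitin ligases of the NEDD4 family and takes part in ubiquitin editing of inflammatory signalling. Its spot intensity was 321 in miR-143-5p cells and 2040 in mock cells, and its log2 ratio was -2.79, a 6.90-fold lower level. On the other 7 arrays RNF11 was between -0.46 and 0.72, so none of them came near this value. On the list of 11 NEDD4-family ligases and adaptors RNF11 was the only member called, and the other 10 were between 0.04 and 0.49.

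HN1 (JPT1), which encodes a small microtubule-associated protein that is abundant in proliferating cells, was second. Its intensity was 4425 against 21604, with a log2 ratio of -2.70. A second HN1 probe, which holds no seed heptamer, gave -2.53, so both probes placed the gene among the lowest. On the other arrays HN1 was between -0.05 and 0.71.

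CAV1, SELENOF and PGK1 were also low. CAV1, the main coat protein of caveolae, had an intensity of 405 against 2201 and a log2 ratio of -2.60, with -1.73 from its second probe. It was also lower on the miR-139-3p array (-1.46) and the miR-30a-3p array (-1.29). CAV2, its partner, was at -0.77, and the other 5 detected members of the caveola list were within 0.25 of 0. SEP15 (SELENOF), a selenoprotein of the endoplasmic reticulum, was at -2.09 and -1.77 with its 2 probes and between -0.40 and 0.50 on the other arrays. PGK1, the glycolytic phosphoglycerate kinase and a gene often used as a loading reference, had an intensity of 1291 against 4289 and a log2 ratio of -2.02. On the other arrays PGK1 stayed between -0.14 and 0.33.

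Several of the lowest genes encode proteins of the cell surface. ITGB4, the beta subunit of the hemidesmosome integrin, was at -2.37, with an intensity of 426 against 1980. MALL, a membrane-raft protein of the MAL family, was at -2.29, with 450 against 1965. MET, the receptor of hepatocyte growth factor, was at -1.94, with 1162 against 3691. All of ITGB4, MALL and MET were also under -1 on the miR-139-3p array, at -1.15, -1.77 and -1.52, and MALL was at -1.02 on the miR-143-3p array. On PANC-1 arrays ITGB4 was at -1.17 with miR-30c-2-3p and MET at -1.003 with miR-30a-3p. NETO2, a transmembrane auxiliary subunit of kainate receptors, was at -1.79 (-1.32 on the miR-30c-2-3p array), and GPC1, a cell-surface heparan sulphate proteoglycan, at -1.74. GPC1 was above 0 on the miR-143-3p array (0.82).

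The remaining genes of the lowest 15 were DPYSL3, MINOS1-NBL1, HMGA2, POLDIP2 and HCFC1R1. DPYSL3, a cytoskeletal protein of the collapsin response mediator family, was at -1.90 from dim spots, 57.6 against 272, and between -0.25 and 0.31 on the other arrays. MINOS1-NBL1 (MICOS10-NBL1) is a read-through of neighbouring genes, so its -1.85 may hold signal of the single genes. HMGA2, an architectural chromatin protein that is low in most adult tissues, was at -1.82 by its brightest probe, 275 against 915, but its other 2 detected probes gave -0.29. On 5 of the other 7 arrays HMGA2 was at least 2-fold higher, between 1.16 and 2.19, and on the miR-30a-3p array it was lower, at -1.24. POLDIP2, a partner of DNA polymerase delta, was at -1.80 and HCFC1R1, a regulator of the host cell factor HCFC1, at -1.75.

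**Figure D2:**
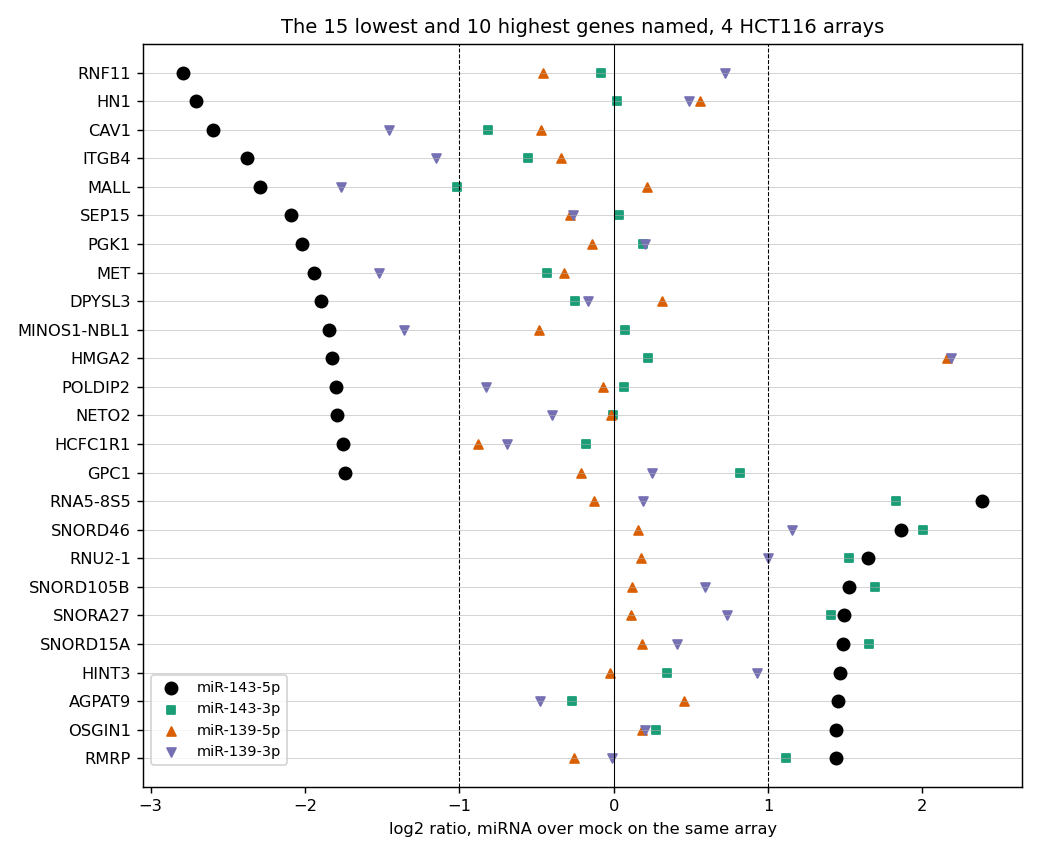
Log2 ratio of miRNA over the mock channel of the same array for the 15 lowest and 10 highest genes of the naming rule (rows) on the 4 HCT116 arrays (symbols), with dashed lines at 2-fold. RNF11, HN1, SEP15 and PGK1 lie far left with miR-143-5p alone among these arrays, while SNORD46, SNORD105B and SNORD15A lie as far right or farther with miR-143-3p.

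To investigate whether the lower genes carried the seed match of miR-143-5p, all detected genes were divided by what their probe holds. There were 175 genes with at least 1 of the 2 heptamers, and 9 of them were at least 2-fold lower (5.14%), against 0.964% of genes without, where 1.0% is the share over all detected genes. None of the 175 was 2-fold higher (0 genes). The share below 0 was 65.1% with a heptamer and 48.7% without. The median ratio was -0.05 with and 0.01 without, a difference of -0.054, so most genes with a heptamer in the probe were close to 0.

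The share of lower genes followed the length of the match. With the full 8-base site it was 12% (3 of 25 genes), with bases 2 to 8 alone 7.69% (4 of 52), with bases 2 to 7 followed by A 2.04% (2 of 98), with bases 2 to 7 alone 1.54% (3 of 195) and with none of these 0.959% (193 of 20128). These shares rest on 2 to 4 genes in each class with a match. At a lower bar, a log2 ratio under -0.5, 24% of genes with the full site and 19.2% with bases 2 to 8 were counted, against 5.69% of genes with no match. A probe covers only a small stretch of its transcript, so a gene without a heptamer in the probe may hold one elsewhere. Whole untranslated regions were not used here, and a heptamer in a probe may lie outside them.

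**Figure D3:**
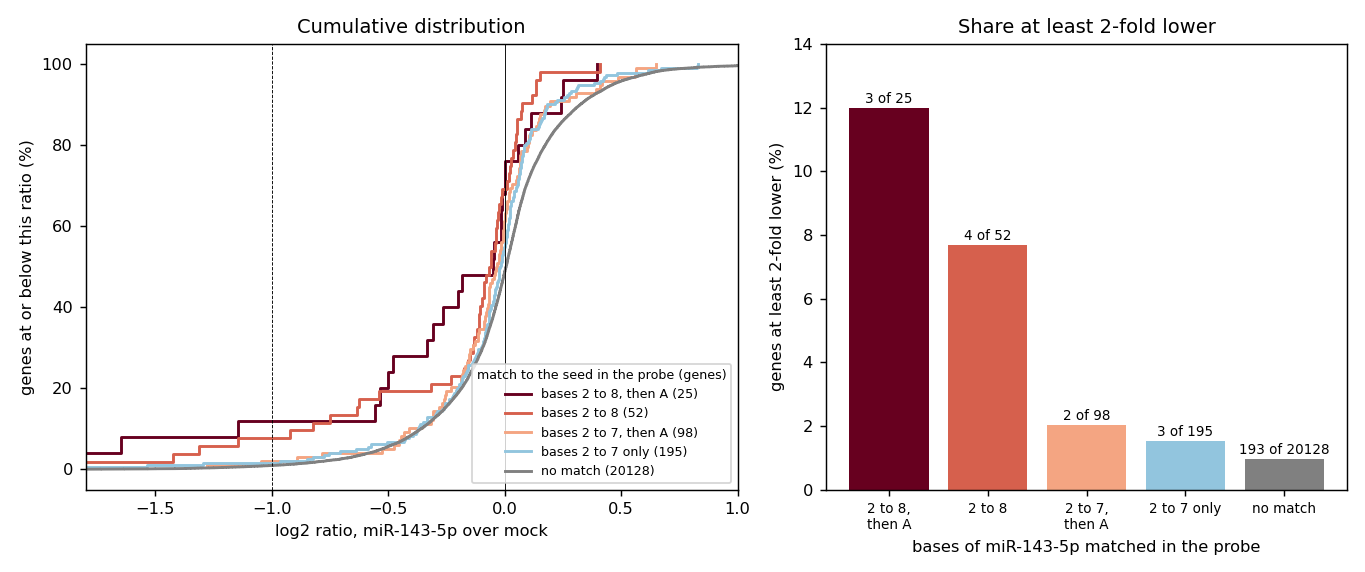
Left, cumulative share of genes (%) at or below each log2 ratio of miR-143-5p over mock, for genes grouped by the longest match to the miR-143-5p seed in their probe, with the number of genes in brackets. Right, the share of each group that was at least 2-fold lower, from 12% with the full site (3 of 25 genes) to 0.959% with no match (193 of 20128).

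The same search was made with the seeds of the other 7 miRNAs on this array. Of these, miR-30c-5p and miR-30a-5p have the same seed and so the same values. The difference in medians for these seeds was between -0.019 and 0.022, and the share of genes 2-fold lower was between 0% and 2.27%. In turn, genes with the miR-143-5p heptamers in their probes had medians between 0.013 lower and 0.040 higher than the rest on the other 7 arrays. The value of -0.054 for the miR-143-5p seed on its own array lay outside both ranges. With no filter on dim probes it was -0.0077, a value inside these ranges, which were themselves taken with the filter. The arrays of 1 line share a kind of control, and no test was made.

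The 9 lower genes with a heptamer ranged from -2.70 to -1.05. HN1 and PGK1 were among the 15 lowest genes of the array, and of the other 13 only ITGB4 had a shorter match, to bases 2 to 7, in its probe. SMYD2, a lysine methyltransferase, was at -1.65, with an intensity of 127 in miR-143-5p cells and 415 in mock cells. TMSB10, an actin-monomer binding thymosin, was bright, 4173 against 8601, and at -1.42. NDUFAF3, an assembly factor of respiratory complex I, was at -1.31, also 2-fold lower on the miR-30c-2-3p array (-1.50). ANAPC1, the scaffold of the anaphase-promoting complex, was at -1.28 with the probe that holds the heptamer, but its 5 probes ranged from -1.28 to 0.16. ESRP2, an epithelial splicing regulator, and EMC2, of the membrane protein complex of the endoplasmic reticulum, were both at -1.14, and ESRP2 was lower still on the miR-30c-2-3p array (-1.61). UBE2Q2, a ubiquitin-conjugating enzyme, was at -1.05.

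Genes of the cell cycle were next described by lists. Counts for these and the lists that follow are to be read against all detected genes. Of those, 48.9% were below 0, 1.0% were 2-fold lower and 0.356% 2-fold higher. The DNA replication list had 45 members, all detected, of which 4 were 2-fold lower (8.89%, against 1.0% of all detected genes), 0 higher and 35 below 0 (77.8%, against 48.9%). Its median was -0.25, against 0.00 for all detected genes. MCM7, a subunit of the replicative helicase, was at -1.63, with an intensity of 2991 against 7233. MCM4, of the same helicase, was at -1.21. RRM1, the large subunit of ribonucleotide reductase, was at -1.19, and CDC45, which activates the helicase, at -1.02. The member farthest the other way was POLD2, a subunit of DNA polymerase delta, at 0.75. On the other HCT116 arrays the list median, over the members detected there, was -0.07 and -0.78 for the 5p and 3p strands of miR-139 and -0.51 for miR-143-3p.

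The mitosis list had 35 members, all detected, and 32 of them were below 0, with a median of -0.25, but 0 were 2-fold lower. Its lowest member was CENPF, a kinetochore protein, at -0.95. Its median with miR-143-3p was -0.79. Among 19 G1/S regulators, 0 were 2-fold lower and 1 was higher, CDKN1A (p21), at 1.16. CDKN1A was also 2-fold higher on the arrays of the 3p strands, at 1.35 (miR-143) and 1.65 (miR-139). E2F1, a transcription factor of S-phase entry, was at -0.76 and was the lowest of that list.

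CDKN1A was also the only one of 24 p53 targets called, and the median of these was 0.11, against 1.45 on the miR-139-3p array. No member was 2-fold in either direction among 21 interferon-response genes (0 lower and 0 higher), whose lowest was IFIT2 at -0.94 and whose median was -0.10. Among 14 NF-kappaB targets and 23 apoptosis genes, BIRC3, an inhibitor of apoptosis, was the only one called, at 1.03. BIRC3 was at 1.35 to 1.46 on the other HCT116 arrays.

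Growth signalling showed few calls. Of 22 components and 19 output genes of the RAS-ERK pathway, only EGR1, an immediate early transcription factor, was past the limit, at 1.05. The components were between -0.39 and 0.62. The output gene DUSP6, a phosphatase of ERK, was at -0.85. Of 25 PI3K-AKT-mTOR components, 0 were called and the median was -0.12, with a range of -0.61 (PIK3R2) to 0.63 (EIF4EBP1). Of 17 genes of TGF-beta and BMP signalling, 1 was lower, ID1, an inhibitor of helix-loop-helix factors and a BMP target, at -1.12.

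WNT targets had a median of -0.34. Of 12 detected members 10 were below 0 (83.3%, against 48.9% of all detected genes) and 2 were 2-fold lower (16.7%, against 1.0%). SOX4, a transcription factor, was at -1.27 from dim spots, 65.1 against 182. RNF43, a ubiquitin ligase that removes WNT receptors from the surface, was at -1.05, with 382 against 711. AXIN2, a scaffold of beta-catenin destruction, was at -0.67. On the other HCT116 arrays SOX4 and RNF43 were between -0.27 and 0.44, and the list medians were between -0.18 and -0.00.

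Of 24 integrin and focal adhesion genes, 1 was lower and 1 higher. ITGB4 was 2-fold lower as given above and ITGB1, the beta subunit shared by most integrins, was at 1.20, with an intensity of 623 against 217. ITGB1 was also above 0 on the other HCT116 arrays, at 0.54 to 1.08. Of 29 actin cytoskeleton genes, 0 were called, 20 were above 0 and the median was 0.23. Among these RHOC was highest at 0.79 and MYH9, a non-muscle myosin heavy chain, lowest at -0.81. Of 21 epithelial junction genes and 10 claudins, 0 were called, with medians of 0.00 and -0.02.

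The glycolysis and protein-folding lists each had 2 members lower and 0 higher. Of 27 genes of glycolysis and hypoxia these were PGK1 and GPI, the glucose-6-phosphate isomerase, at -1.22 with an intensity of 4648 against 8262. PGAM1 was at -0.90, but ENO1 and HK1 were at 0.62 and 0.66, so the pathway did not go one way, and its median was -0.06. HK2 was at 0.10 here, against -1.68 for miR-143-3p and -2.25 on the miR-139-3p array. Among cholesterol synthesis genes SREBF1, a master transcription factor of lipid synthesis, was at -1.50, with an intensity of 787 against 1899. HMGCS1, an early enzyme of cholesterol synthesis, was at 0.69. Of 20 genes of the unfolded protein and ATF4 response, PHGDH, the first enzyme of serine synthesis, was at -1.34 and PDIA4, a disulphide isomerase, at -1.08, and the list median was -0.13. That median was 0.18 when the array was centred on its median in place of loess.

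Among 23 genes of miRNA machinery and mRNA decay, CNOT6, a deadenylase of the CCR4-NOT complex, was at -1.21 and was the only one called. DICER1, which cuts precursor hairpins, was at -0.71, while it was at 0.47 to 1.03 on the other HCT116 arrays. Of 11 detected genes known as targets of the guide strand miR-143-3p, 0 were called, with a median of 0.06 and FSCN1 lowest at -0.70. Of 14 housekeeping genes only PGK1 was called, and the median was -0.01.

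**Figure D4:**
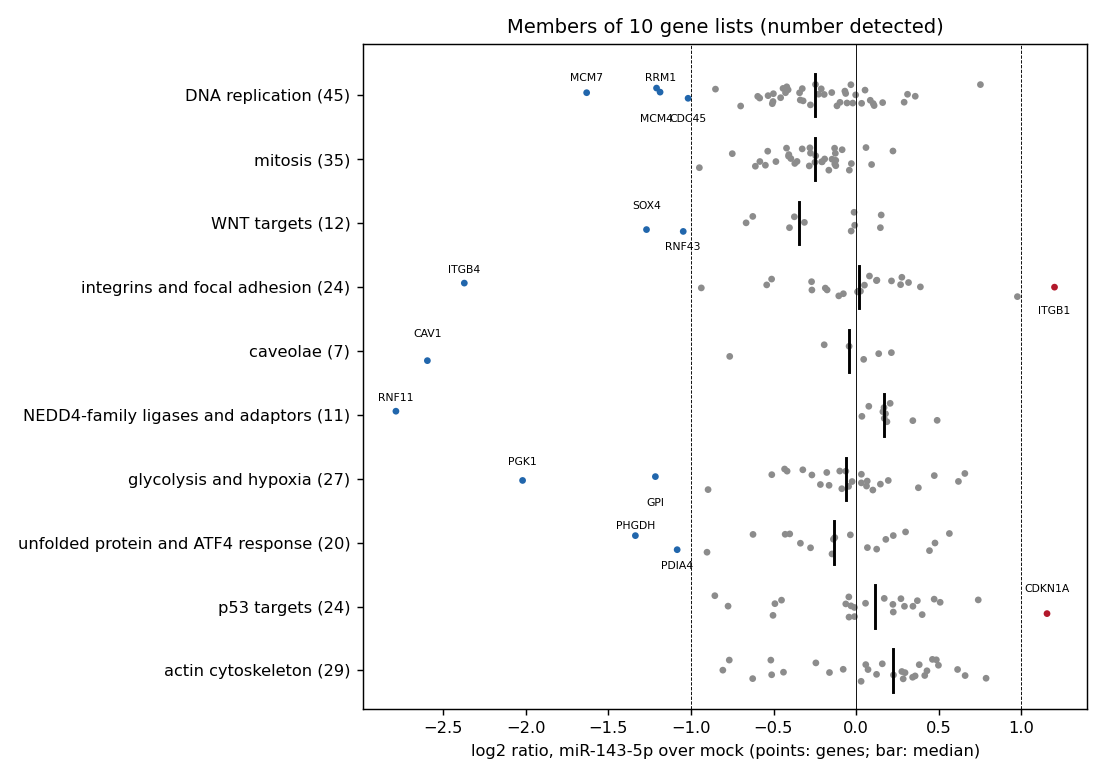
Log2 ratio of miR-143-5p over mock for the detected members of 10 of the gene lists (points, number in brackets), with the list median as a bar, dashed lines at 2-fold, and members past 2-fold in colour and named. Replication, mitosis and WNT lists have medians between -0.34 and -0.25, whereas RNF11, CAV1, ITGB4 and PGK1 stand far from the other members of their lists.

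Protein families were described by name pattern, and their counts are to be read against the 1.0% of all detected genes that were lower and the 0.356% that were higher. Keratins had 3 of 28 members lower, KRT23 at -1.34, KRT80 at -1.14 and KRT32 at -1.10. For KRT80, an epithelial keratin, the level in miR-143-5p cells was 8.47 on the log2 scale, and the mock levels were 9.61 and 9.66 on the miR-143 arrays but 7.61 and 7.52 on the miR-139 arrays. KRT80 in miR-143-5p cells was therefore lower than the mock cells of its own array and higher than those of the miR-139 arrays. RAB GTPases, which direct vesicle traffic, had 4 of 50 members lower, RAB26 at -1.52, RAB12 at -1.20, RAB40B at -1.19 and RAB35 at -1.05. RAB26 was also 2-fold lower on the miR-143-3p (-1.09), miR-30c-5p (-1.26) and miR-30c-2-3p (-2.63) arrays. RAB12 was at -1.03 on the miR-139-5p array, and its second probe gave -0.51 here. RAB40B and RAB35 were not 2-fold lower on any other array. Of 77 ring finger proteins 4 were lower, RNF11, RNF6 (-1.18), RNF44 (-1.15) and RNF43, although the second RNF6 probe gave -0.03.

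Larger families had few members called. Solute carriers had 5 of 275 lower (1.82%), with SLC27A1, a fatty acid transporter, at -1.38 by 1 probe and 0.06 by another. Zinc finger proteins had 1 of 416 lower (0.240%; ZNF598, -1.04) and translation initiation factors 1 of 54 (EIF4A2, -1.15). Tubulins had 1 of 23 higher, TUBB2A at 1.24 with both probes above 1. Ribosomal proteins, subunits of complex I and of the proteasome, histones, heat shock proteins, chemokines, serpins and tripartite motif proteins had 0 members called. Their medians were 0.12 and 0.15 for the large and small ribosomal subunits, 0.22 for complex I, 0.12 for the proteasome, 0.14 for histones, 0.02 for heat shock proteins, -0.03 for chemokines, 0.22 for serpins and -0.04 for tripartite motif proteins. The histone median was -0.17 against the mean of the 4 mock channels.

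Small structured RNAs made up 28 of the 73 higher genes (38.4%), and protein-coding genes 42 (57.5%). The small RNAs are of classes that mostly process or form part of ribosomes and spliceosomes. Of 261 detected RNAs of these classes 28 were 2-fold higher (10.7%) and 0 lower, with a median of 0.24 and 80.5% above 0. Of the 13295 protein-coding genes, 42 were 2-fold higher (0.316%). The highest gene of the array was RNA5-8S5 (RNA5-8SN5), a ribosomal RNA, at 2.39, with an intensity of 5861 in miR-143-5p cells and 874 in mock cells. SNORD46, a C/D box small nucleolar RNA, was at 1.86, with 396 against 73.9. RNU2-1, the spliceosomal U2 RNA, was at 1.65, with 1254 against 320. SNORD105B (1.53), SNORA27 (1.49), SNORD15A (1.48) and RMRP (1.44), the RNA of RNase MRP, followed.

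By family, 8 of 20 small Cajal body RNAs were 2-fold higher, with a median of 0.87 and SCARNA14 highest at 1.38. H/ACA box small nucleolar RNAs had 8 of 94 higher and a median of 0.31, and C/D box RNAs had 7 of 119 and a median of 0.10. Of 5 spliceosomal RNAs 1 was higher, with a median of 0.50, and of 3 ribosomal RNAs 2 were. In contrast, the host genes of small nucleolar RNAs had a median of -0.15, with 1 of 21 lower, SNHG7, at -1.03 by the brightest of 4 probes, which reached up to 0.07. The 7SL entry of the array was at -0.04, and 0 Y RNAs were on the array.

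These RNAs were high on some of the other arrays and not on others. The Cajal body RNAs had medians of 0.63 for miR-143-3p, then 1.36 for the 3p strand and 0.01 for the 5p strand of miR-139. On the PANC-1 arrays these medians were 0.71 with miR-30c-2-3p and between -0.15 and 0.03 with the other 3 miRNAs. On the HCT116 arrays SNORD46 was at 2.001, 1.16 and 0.16, RNU2-1 at 1.53, 0.998 and 0.18, and RNA5-8S5 at 1.83, 0.19 and -0.12 in the same order, and RNA5-8S5 was at -1.62 on the miR-30a-3p array. RNA18S5 (RNA18SN5), another ribosomal RNA, was at 1.04 here, but its mock levels differed, 10.77 and 10.70 on the miR-143 arrays and 12.94 and 12.82 on the miR-139 arrays, with 11.81 in miR-143-5p cells. Small RNAs are recovered unevenly in RNA preparations, and the part of RNA quality or recovery in these values was not tested.

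**Figure D5:**
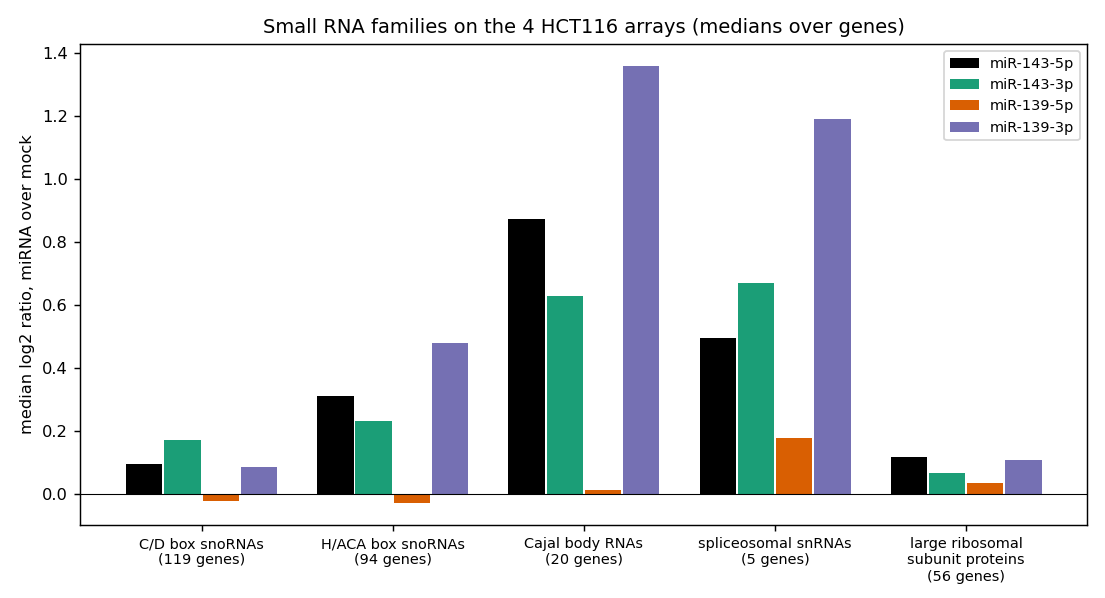
Median log2 ratio of miRNA over mock for 4 families of small RNAs and, for comparison, the large ribosomal subunit proteins, on the 4 HCT116 arrays (bars by miRNA; number of genes detected with miR-143-5p under each family). Cajal body RNAs have a median of 0.87 for miR-143-5p, and of the other bars the miR-139-3p one is highest at 1.36 and the miR-139-5p one lowest at 0.01.

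Among protein-coding genes, HINT3, a hydrolase of the histidine triad family, was at 1.47 with an intensity of 915 against 264. AGPAT9 (GPAT3), an acyltransferase of triglyceride synthesis, was at 1.45 with 1200 against 353, and OSGIN1, an oxidative-stress-induced growth inhibitor, at 1.44 with 435 against 121. HINT3 was between -0.03 and 0.93 on the other 7 arrays, AGPAT9 between -0.84 and 0.54 and OSGIN1 between -0.07 and 0.80, so none of them was 2-fold higher elsewhere.

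The identity of the cells was checked on the same array. Of 11 colon epithelial markers 7 were detected, among them CDH1, EPCAM and CDX2, while CDH17, LGALS4, VIL1 and KRT20 were not. Of these 7, 0 were called, and their median was 0.16. Of 5 immune markers on the array 2 were detected and of 4 endothelial markers 1, all within 0.10 of 0 and with intensities under 40. Of 12 mesenchymal markers 5 were detected, with a median of 0.42, and of 6 smooth muscle markers 3, of which CNN1, a calponin of smooth muscle, was at 1.09, with an intensity of 119 against 30.7. CNN1 was between -0.07 and 0.02 on the other HCT116 arrays. VIM, the intermediate filament of mesenchymal cells, was dim in both channels, 64.1 against 33.6.

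The 205 lower genes had a median of -0.23 on the miR-143-3p array, and on the miR-139 arrays of -0.09 (5p strand) and -0.35 (3p strand). The 73 higher genes had medians of 0.77, 0.12 and 0.36 in the same order. Of these 73, 29 were 2-fold higher on the miR-143-3p array, where 0.517% of all detected genes were, and of the 205 lower genes 14 were 2-fold lower there, where 0.925% were. On the miR-139-3p array, 42 of the 205 were 2-fold lower, where 2.82% of all detected genes were, and 15 of the 73 were 2-fold higher, where 2.11% were. These arrays each have a mock channel of the same line. The mock channel of this array was 2-fold from that of the miR-143-3p array in 4 genes. It was 2-fold from that of the miR-139-3p array in 225 genes. The part of the mock channels in these overlaps was not tested.

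Genes well above background in mock cells but not in miR-143-5p cells allow only a lower limit of the difference. Among genes with a reference symbol other than a provisional LOC name and with no outlier spots there were 193 of these, and 1 had a limit of 2-fold or more, ACTL8, an actin-like gene, which was at least 2.16-fold lower, with the dim channel set no lower than the weakest signal well above background. In the other direction there were 588 genes, and 0 had a limit of 2-fold. These limits were taken from levels that include the offset, which pulls the differences of dim spots towards 0. For FBXO48, intensities of 40.4 in miR-143-5p cells and 23.6 in mock cells gave a limit of only 1.26-fold. The low counts past 2-fold in both directions therefore say little of these genes, and no conclusion is drawn from them.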

How the data were processed

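RNA was hybridised to 8 two-colour Agilent arrays, and the labels gave the groups (0 columns had no sample). The scanner software (Feature Extraction) gave, per the file headers, each spot's mean intensity and local background intensity. The deposited log10 ratio of processed Cy5 over Cy3, which equals the authors' processed values, was converted to log2 and used as an alternative.

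In R 4.3.3 (limma 3.58.1 and version 1.17.8 of data.table), background was corrected by normexp (offset 50). Log2 ratios were normalised within the array by loess. Outlier spots were left out, spots of a probe averaged, and each gene represented by its probe of highest mean signal over 8 arrays. Channel levels were quantile-normalised on mean signal between arrays. The procedure was tested on simulated data. Later steps used Python 3.11.15 (pandas 2.3.3, numpy 2.4.6, matplotlib 3.10.9).

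With 1 array per miRNA no test was made, and 2-fold was used as the limit. The 29 lists and 25 name-pattern families, and the genes studied, were chosen with earlier results of these data known. Genes were named as the 15 lowest and 10 highest that had a reference symbol, were well above background in both channels, and had all probes of the same sign. List members past 2-fold or at the ends of a list, lower genes with a seed heptamer, 1-channel limits, KRT80 and HK2 were named too. A few further members and genes were named after their values were seen. Some genes, and the list results that need them, are not reported here. Symbols in brackets are current names, matched for 23542 gene names. Median spot intensity was 23.2 over a background of 18 in Cy3 and 23.8 over 20 in Cy5, which limits precision for dim genes. Alternatives were no background correction, an offset of 1, the scanner ratio, median centring, the median over probes, other detection filters, other controls and kept outlier spots.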

Additional observations from a re-analysis of the deposited data

Results flagged for a closer look

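For each gene named on this array the mock level was compared between the 4 HCT116 arrays, and 2 genes had 1 level far from the others relative to the range. HN1 had a mock level of 14.63 on the miR-143-5p array, against 14.28 to 14.33 on the other 3, on the log2 scale. Its level in miR-143-5p cells was 11.93, under all of these. SNORD105B had a mock level of 7.71 on the miR-143-3p array, against 7.65 on each of the other 3. About 1 in 20 such groups is singled out by chance.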

How the results depend on the processing

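The counts of genes at least 2-fold lower and higher were 205 and 73. They were 323 and 125 without background correction, 604 and 311 with an offset of 1, and 973 and 818 with the scanner software's ratio. With median centring they were 105 and 206, so 66.2% of called genes were higher in place of 26.3%, and the median of all genes was at 0.08. With the mean of the 4 HCT116 mock channels as the control they were 210 and 184 (46.7% higher). The difference in medians for the seed heptamers was -0.139 with an offset of 1, -0.122 with the scanner's ratio and -0.0077 with no filter on dim probes, and it kept its sign under every alternative run. List medians that changed sign were p53 targets at -0.13 with the median of the other 7 arrays subtracted, interferon response at 0.20 and histones at -0.17 against the mean mock, PI3K-AKT-mTOR components at 0.015, the unfolded protein and ATF4 response at 0.18 and small nucleolar RNA host genes at 0.084 with median centring, and colon epithelial markers at -0.020 and mesenchymal markers at -0.0028 with no filter. The cause was not tested. The 15 lowest and 10 highest genes kept their sign under all alternatives, and HMGA2 was at -0.29 by the median over its probes and HINT3 at 0.96 with the median of the other 7 arrays subtracted, both then within 2-fold. No paired analysis was possible because each miRNA was on 1 array. Dim probes limit what could be called.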

Other observations

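The following lists were written after the values were seen and are described only. Of all detected genes, 1.0% were 2-fold lower and 0.356% 2-fold higher. As the lists were chosen with their values known, no conclusion is drawn from a higher share. Of 30 genes of the oxidative stress response governed by the transcription factor NRF2, 28 were detected, 5 were 2-fold higher and 2 lower, with a median of 0.28. The higher ones were OSGIN1, AKR1B10 (1.34), an aldo-keto reductase, SQSTM1 (1.27), an autophagy receptor, SRXN1 (1.19), which repairs peroxiredoxins, and TXNRD1 (1.06), a thioredoxin reductase. SRXN1 had an intensity of 6109 in miR-143-5p cells and 2084 in mock cells, and SQSTM1 5998 against 1942. The lower ones were FTH1, the ferritin heavy chain, at -1.33, and ABCC3, an export pump, at -1.05, while FTL, the ferritin light chain, was at 0.85. NQO1, a quinone reductase, was at 0.01. On the other HCT116 arrays the median of this list, over the members detected there, was -0.03 and -0.10 for the 5p and 3p strands of miR-139 and -0.06 for miR-143-3p. SQSTM1 was at 0.90 with miR-139-3p. On the miR-30c-5p array of PANC-1, SQSTM1 was at 1.14, SRXN1 at 1.01, OSGIN1 at 0.80, TXNRD1 at 0.77 and AKR1B10 at 0.17. In contrast, SRXN1 was at -0.77 and SQSTM1 at -0.68 with miR-30c-2-3p, and at -0.80 and -0.51 with miR-30a-3p.

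Of the kallikrein serine proteases 7 of 15 were detected, and KLK5 (-1.31), KLK7 (-1.31) and KLK6 (-1.11) were 2-fold lower. The median of these 7 was -0.73. Over the members detected there, it was 0.01 and -1.11 for the 5p and 3p strands of miR-139 and -0.29 for miR-143-3p. On the miR-139-3p array KLK6 was at -2.94, KLK7 at -1.76 and KLK5 at -0.88. Of 13 detected protein disulphide isomerases, which fold proteins in the endoplasmic reticulum, PDIA3 (-1.48), PDIA6 (-1.11) and PDIA4 were 2-fold lower. P4HB, the brightest spot among them, was at -0.15. The list median was also -0.15, and it was between -0.30 and -0.13 on the other HCT116 arrays over the members detected there. Of 7 detected ribosomal S6 kinases RPS6KA5 (-1.33), RPS6KA4 (-1.10) and RPS6KA2 (-1.01) were lower, and RPS6KB2 was at 0.62. The RPS6KA5 spots were dim, 48.0 against 154. RPS6KA5 was also 2-fold lower on the miR-143-3p array, at -1.27, while RPS6KA4 was at 0.00 and RPS6KA2 at 0.24 there.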
